A study of Mus musculus with 6 samples.

Results

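The RMER, BGLII and MYSERV elements described here are older members of the ERVK family, a family of endogenous retroviruses related to betaretroviruses. Their RNA was measured in 3 β-actin knockout samples (KO, Actb-/-) and 3 wild-type samples (WT) of mouse embryonic fibroblasts, which are connective-tissue cells grown from embryos. All samples carried the BALB/c strain label and an embryo age of 10.5 days, and no treatment is named for either genotype. Actb encodes a protein of the cytoskeleton that is also a subunit of nuclear chromatin remodelling complexes of the BAF type. The series calls the samples biological replicates, and nothing says that they came from separate embryos or cultures, so the p-values measure the spread between these samples, which may be technical. Ribosomal RNA was depleted from the total RNA before each library was made, and reads were counted per repeat subfamily over all genomic copies, so no value belongs to a single locus and no position in or near a gene is attached to a row.

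The elements were chosen by name and family: rows of the ERVK family whose name starts with RMER, BGLII or MYSERV. They were 56 of 1336 rows, and were split by name into 11 subgroups: 10 rows of RMER17, 9 of RMER16, 7 of BGLII, 6 of RMER6, 5 of RMER3, 4 each of RMER13 and RMER19, 3 each of RMER12, RMER20 and MYSERV, and 2 of RMER4. Of the 56 rows, 8 are internal regions by their name ending and 48 are not. In the files every one of them has the class LTR.

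An endogenous retrovirus is the DNA copy of a retrovirus that entered the germ line. An intact copy holds an internal region, which encodes the retroviral structural proteins and enzymes, between a pair of long terminal repeats (LTRs), which carry the promoter and the polyadenylation signal. In older families most copies have decayed or have recombined to a lone LTR, and some lone LTRs act as promoters or enhancers of neighbouring genes. In differentiated cells such copies are largely held silent by DNA methylation and by histone methylation that zinc finger proteins direct to them. RMER names stand for rodent repeats of medium reiteration frequency, and MYSERV elements are named after the mys retroelements of Peromyscus mice.

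The total over all 1336 rows ranged from 9191049 to 19288620 counts per library in KO and from 7708630 to 17937809 in WT. Reads outside these rows are not in it, so it is not the sequencing depth. Ribosomal RNA rows filled 52.9% to 84.8% of this total in KO and 32.4% to 84.1% in WT. The libraries with the most ribosomal RNA were KO replicate 1 and WT replicate 2, and those with the least were KO replicate 2 and WT replicate 1. The rows described here received 30079, 75832 and 59454 counts in KO replicates 1, 2 and 3, against 96033, 28453 and 57365 in WT replicates 1, 2 and 3. The median count of the tested rows among them was 369 to 851.5 in KO libraries and 302 to 1106 in WT libraries. The rows of the files hold no protein-coding genes, so neither Actb itself nor fibroblast markers were analysed here. By the start of their names (RLTR9, RLTR13, RLTR45, MERVL-int or MT2_Mm), 40 rows were taken for LTR groups known from embryonic stem or trophoblast cells. Whether each row is active in such cells was not checked. Of these 40 rows 39 were tested, and 1 was higher and none lower in KO (edgeR, adjusted p below 0.05), with a median log2 fold change of -0.01. This was 2.56% called, against 5.78% of all tested rows, and 25.6% had an unadjusted p below 0.05, against 20.9% of all tested rows.

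Levels are given as normalized CPM, CPM being counts per 1000000 of a library size scaled by TMM (a trimmed mean of log ratios between libraries), so that the ribosomal RNA rows do not set the scale by their bulk. They are not divided by the length or copy number of an element, so they are compared between genotypes and not between subfamilies. On this scale the summed level of all 56 rows was 3685, 3766 and 4010 normalized CPM in KO, against 3985, 3700 and 3993 in WT. The means, 3820 ± 169 in KO and 3893 ± 167 in WT (SD, n = 3 each), differed by less than either SD. In bulk RNA, fewer cells using an element and less RNA per cell cannot be told apart.

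As a share of all ERVK counts, the same rows took 4.35%, 17.5% and 9.09% in KO replicates 1, 2 and 3, against 24.1%, 4.54% and 9.86% in WT replicates 1, 2 and 3. The exact (Clopper-Pearson) 95% binomial interval in KO replicate 1 was 4.30% to 4.40%, which covers counting error only. The share ran opposite to that of ribosomal RNA. In the denominator 3 other ERVK rows, MMERVK9C_I-int, RLTR19-int and RLTR25A, made up 26.7% to 85.4% of the ERVK counts and were most of them in each library but KO replicate 2 and WT replicate 1. Their part of the ERVK counts was 85.4% in KO replicate 1 and 84.8% in WT replicate 2, the libraries with the most ribosomal RNA. With these 3 rows left out, a choice made after seeing the data, the RMER, BGLII and MYSERV rows took 31.1% ± 1.46 of the ERVK counts in KO and 31.8% ± 1.66 in WT (SD, n = 3 each). 

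The main comparison asked which of these elements had more or less RNA in KO than in WT cells. In KO cells RNA of MYSERV16_I-int, an internal region, rose to 1.19 times its WT level, and RNA of RMER6B, an LTR row, fell to 0.787 times its WT level. These were the 2 calls among 54 tested rows (quasi-likelihood test of edgeR, p adjusted by Benjamini-Hochberg over all 1193 tested rows and below 0.05). Both calls were lost with the replicate number as a block. They were also lost when scaled by total counts, where the log2 fold change was -0.11 for MYSERV16_I-int and -0.71 for RMER6B. Among all tested rows 5.78% were called, 2.18% as higher and 3.60% as lower in KO, and among the 54 members 3.70%, a share near the background. An unadjusted p below 0.05 was found in 10 of the 54 rows, 18.5%, against 20.9% of all tested rows. The median log2 fold change of the 54 rows was 0.02, against 0.01 over all tested rows, and 30 of the 54 lay above 0, where 52.3% of all tested rows did. Scaled by total counts 1 of the 54, RMER6-int, lay above 0 and their median was -0.36, like that of all tested rows. With TMM scaling the 54 log2 fold changes ran from -0.46 to 0.55.

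**Figure D1:**
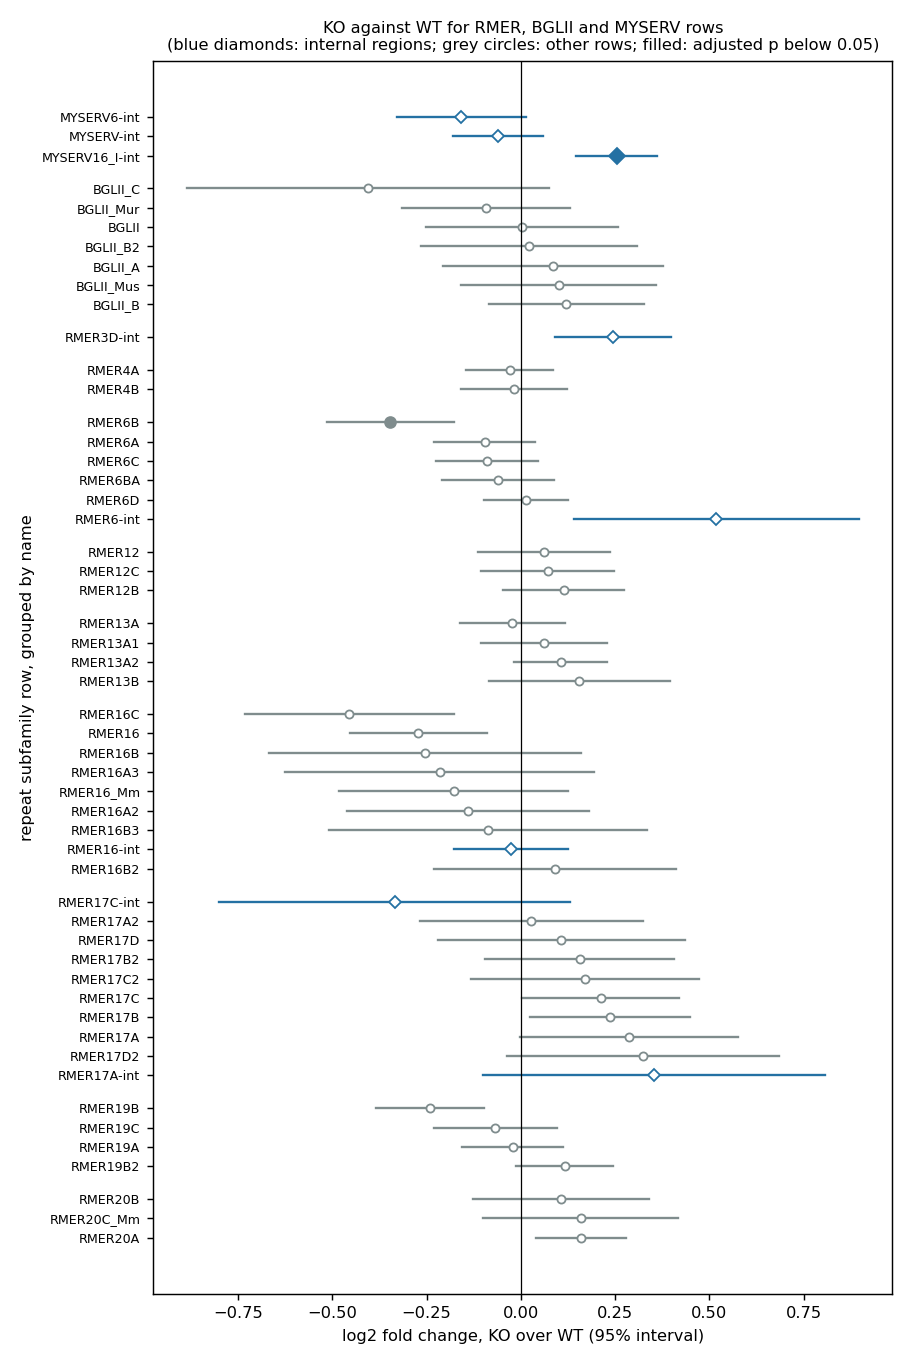
Log2 fold change of KO over WT with its 95% interval (x axis) for the 52 tested RMER, BGLII and MYSERV rows averaging 20 or more counts (y axis, grouped by name). Blue diamonds are internal regions, grey circles the other rows, and filled marks the 2 rows past the threshold: MYSERV16_I-int at 0.25 and RMER6B at -0.35.

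In 11 of the 54 rows, 20.4%, the 3 KO libraries did not overlap the 3 WT libraries, while this held for 25.8% of all tested rows. KO lay above WT in 4 of the 54 rows, against 12.4% of all tested rows. These were the internal regions MYSERV16_I-int, RMER3D-int and RMER6-int and the LTR row RMER20A. Of the 8 internal regions tested the others overlapped, and whether internal regions differ from LTR rows was not tested. KO lay below WT in 7 of the 54 rows, near the 13.4% of all tested rows. These 7 were RMER6A, RMER6B, RMER16, RMER16B, RMER16C, RMER19B and BGLII_C. None of them is an internal region, but 46 of the 54 tested rows are not internal regions either.

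The MYSERV rows are all internal regions, the part of the element with the retroviral coding sequence. MYSERV16_I-int was at 165, 163 and 157 normalized CPM in KO, against 134, 136 and 136 in WT. All KO libraries were above all WT libraries, and the WT libraries lay close together. The log2 fold change was 0.25, its standard error 0.05 and its 95% interval 0.15 to 0.36 (edgeR adjusted p = 0.0204), a rise that 3 of 3 KO libraries showed. The call was lost without KO replicate 2 or any single WT replicate, at log2 fold changes of 0.25 to 0.27. Scaled by total counts, ribosomal RNA included, the log2 fold change was -0.11, where the median of all rows was -0.36, and the row did not pass.

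The other MYSERV rows did not pass. MYSERV6-int was at 179, 161 and 159 normalized CPM in KO, against 177, 202 and 179 in WT, and the groups overlapped. Its log2 fold change was -0.16 with a 95% interval of -0.33 to 0.01 (edgeR adjusted p = 0.278). MYSERV-int was at 75.8, 74.3 and 69.3 in KO, against 76.1, 73.0 and 79.2 in WT, a log2 fold change of -0.06 with an interval of -0.18 to 0.06. Within a library, where scaling plays no part, the counts of MYSERV16_I-int were 0.918, 1.01 and 0.982 times those of MYSERV6-int in KO, against 0.757, 0.672 and 0.761 times in WT. This pair was chosen after its values were seen, so the ratio has no test.

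The RMER6 subgroup held the call in the other direction. RMER6B was at 44.3, 42.5 and 47.3 normalized CPM in KO, against 55.7, 62.9 and 52.7 in WT. The highest KO library stood below the lowest WT library, and WT replicate 2 was the highest of all. The log2 fold change was -0.35, its standard error 0.07 and its 95% interval -0.52 to -0.18 (edgeR adjusted p = 0.0330), a fall that 3 of 3 KO libraries showed. The call was lost without any single library, at -0.28 to -0.40 with edgeR adjusted p of 0.0512 to 0.146, and with limma-voom (adjusted p = 0.0543).

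The other LTR rows of the same name group lay nearer to 0. RMER6A was at 227, 217 and 223 normalized CPM in KO, against 232, 251 and 231 in WT, without overlap but with a small difference (log2 fold change -0.10, edgeR adjusted p = 0.407). RMER6C, RMER6BA and RMER6D had log2 fold changes of -0.09, -0.06 and 0.01, with overlapping groups. The counts of RMER6B were 0.222, 0.223 and 0.229 times those of RMER6C in KO, against 0.275, 0.289 and 0.245 times in WT, a pair likewise chosen after its values were seen. RMER6-int, the internal region, was at 9.07, 7.55 and 10.8 normalized CPM in KO, against 6.68, 6.37 and 5.85 in WT. Its log2 fold change, 0.52 with a 95% interval of 0.14 to 0.90, was the highest among members with at least 50 counts on average, and did not pass (edgeR adjusted p = 0.115). It rested on 74 to 160 counts per library in KO and 49 to 161 in WT.

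**Figure D2:**
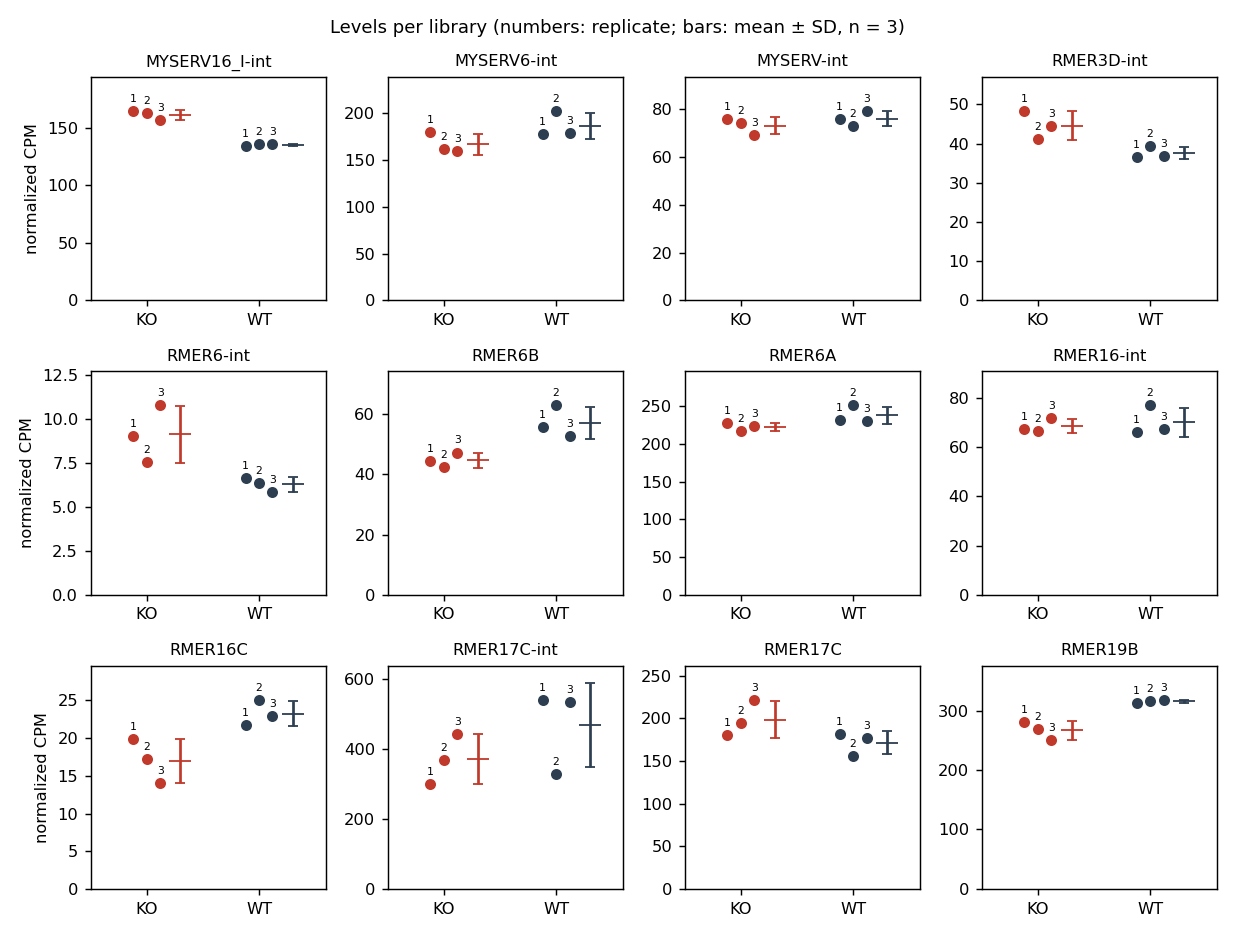
Normalized CPM (y axis, from 0) of 12 RMER and MYSERV rows in the KO and WT libraries (x axis). Points are libraries with their replicate number, and bars are mean ± SD (n = 3). KO and WT do not overlap for MYSERV16_I-int, RMER3D-int, RMER6-int, RMER6B, RMER6A, RMER16C and RMER19B.

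RMER16 rows lay mostly below 0: 8 of 9 had a log2 fold change below 0, the subgroup median was -0.18, and none passed the test. RMER16C was at 19.8, 17.2 and 14.0 normalized CPM in KO, against 21.7, 25.1 and 22.9 in WT. Its log2 fold change of -0.46, with a 95% interval of -0.73 to -0.18, was the lowest among the members (edgeR adjusted p = 0.0687), and it passed with DESeq2 and without KO replicate 1. RMER16 itself was at 16.0, 15.8 and 16.1 in KO, against 19.6, 20.8 and 17.9 in WT, without overlap (log2 fold change -0.27, edgeR adjusted p = 0.0899). RMER16B, a rare row with 25 to 73 counts in KO and 36 to 94 in WT, had a log2 fold change of -0.25 and an interval of -0.67 to 0.16. The internal region RMER16-int was at 67.4, 66.4 and 72.0 in KO, against 66.3, 77.0 and 67.4 in WT, and its interval ran from -0.18 to 0.13. RMER16A3 was at 19.0, 17.9 and 20.1 in KO, against 16.3, 27.2 and 24.8 in WT, so that WT replicate 1 was the lowest library and the other WT libraries the highest. Its log2 fold change of -0.22 did not pass, and was -0.45 without WT replicate 1, where it passed (edgeR adjusted p = 0.0416).

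The 8 LTR rows of RMER17 all had log2 fold changes above 0, from 0.03 in RMER17A2 to 0.32 in RMER17D2, and none of the subgroup's 10 rows passed; scaled by total counts all 10 lay below 0. RMER17D2 was at 45.1, 49.2 and 65.6 normalized CPM in KO, against 48.0, 33.9 and 44.4 in WT. RMER17A was at 45.3, 54.0 and 66.0 in KO, against 47.6, 40.4 and 47.5 in WT, and it did not pass (log2 fold change 0.29, edgeR adjusted p = 0.243). In both rows KO replicate 3 was the highest library and the groups overlapped. RMER17C was at 180, 194 and 222 in KO, against 181, 156 and 177 in WT, with a log2 fold change of 0.21 and a 95% interval of 0.0029 to 0.42 that, unadjusted, excludes 0 (edgeR adjusted p = 0.233). The same held for RMER17B, with a log2 fold change of 0.24 and an interval of 0.02 to 0.45 (edgeR adjusted p = 0.189). The subgroup median of 0.19 was 0.09 without KO replicate 3 and 0.11 without WT replicate 2. Scaled by total counts it was -0.23.

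The internal regions of RMER17 had fold changes of opposite sign, and neither passed. RMER17C-int was at 300.4, 369 and 442 normalized CPM in KO, against 540, 329 and 534 in WT. WT replicate 2 lay within the KO range, while the other WT libraries lay above it, and the log2 fold change of -0.34 had an interval of -0.80 to 0.13 (edgeR adjusted p = 0.405). It was -0.54 without WT replicate 2 and -0.21 without KO replicate 1, and did not pass in either. RMER17A-int, with 60 to 193 counts in KO and 54 to 216 in WT, was at 7.35, 9.58 and 11.1 in KO, against 8.96, 7.02 and 5.92 in WT (log2 fold change 0.35, edgeR adjusted p = 0.370). It was 0.22 without KO replicate 3, 0.22 without WT replicate 3 and 0.58 without WT replicate 1.

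RMER17 rows varied together from library to library. In all 10 rows KO replicate 1 was the lowest and KO replicate 3 the highest of the KO libraries, and in 9 rows WT replicate 2 was the lowest of the WT libraries. KO replicate 1 and WT replicate 2, both lowest in 9 of the 10 rows, are the libraries with the most ribosomal RNA, and this joint pattern held in 21.6% of all tested rows and in 18 of the 54 members. The part of ribosomal RNA in it was not tested. With the ribosomal RNA share as a covariate the subgroup median was 0.22 and still no row passed. The median SD between replicates was 0.22 on the log2 scale in RMER17, against 0.12 over the members, and counting error alone gives 0.05 in RMER17. In RMER6 the same SD was 0.06, close to the counting error of 0.05. Rows with similar sequence may share reads, because the rule for dividing reads among matching subfamilies is not stated in the labels or files, so rows of a subgroup are not independent measurements.

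**Figure D3:**
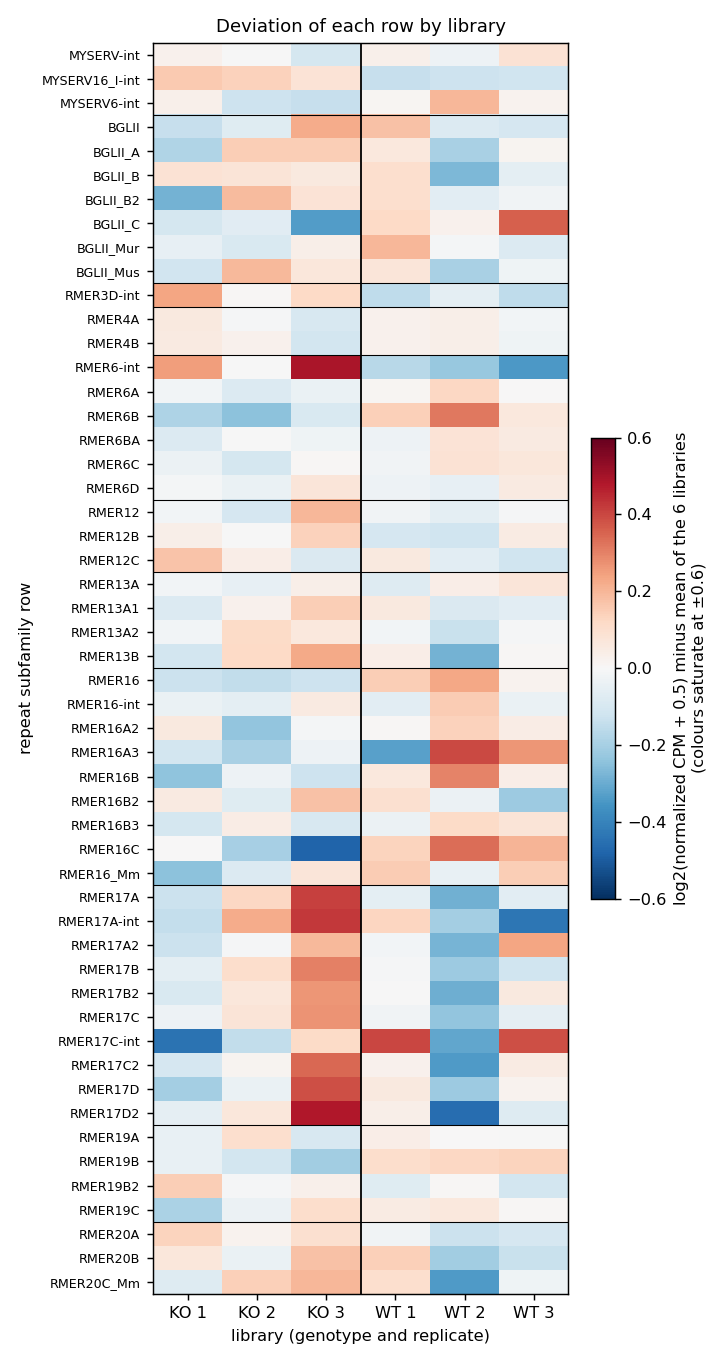
Deviation of log2(normalized CPM + 0.5) from the mean of all 6 libraries (colour, saturating at ±0.6) for 52 RMER, BGLII and MYSERV rows (y axis) in the KO and WT libraries (x axis). RMER17 rows are highest among KO libraries in KO replicate 3 and, in 9 of 10 rows, lowest among WT libraries in WT replicate 2. MYSERV16_I-int and RMER6B are among the 11 rows that split by genotype, 20.4% of the 54 tested, against 25.8% of all tested rows.

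The ratio of internal to LTR counts within a library needs no scaling between libraries. For RMER17 it was 0.491, 0.547 and 0.553 in KO, against 0.828, 0.611 and 0.800 in WT, so all KO libraries were lower. RMER17C-int gave nearly all of the internal counts, and against RMER17C alone its ratio was 1.67, 1.90 and 1.99 in KO, against 2.98, 2.10 and 3.01 in WT. The ratio of RMER17A-int to RMER17A overlapped, at 0.162, 0.177 and 0.169 in KO, against 0.188, 0.174 and 0.125 in WT. For RMER6 the ratio was 0.0153, 0.0133 and 0.0179 in KO, against 0.0110, 0.00977 and 0.00935 in WT, so all KO libraries were higher. For RMER16 it was 0.814, 0.846 and 0.893 in KO, against 0.747, 0.739 and 0.707 in WT, also higher in each KO library. For RMER3 the groups overlapped. Counts of an internal region and of its LTR rows in the same library share that library's depth. Whether library quality affects both alike was not tested. Within each genotype the RMER17 ratio was lowest in the library with the most ribosomal RNA, KO replicate 1 and WT replicate 2. The RMER6 and RMER16 ratios were not lowest in both of these libraries. All these ratios are over chosen rows and have no test.

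**Figure D4:**
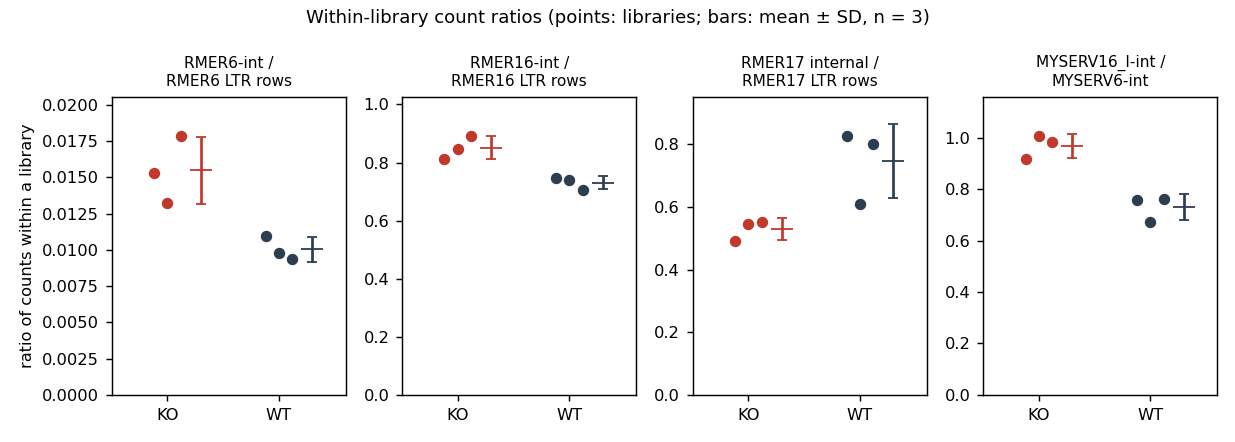
Ratio of counts within a library (y axis, from 0) in KO and WT (x axis) for internal over LTR rows of RMER6, RMER16 and RMER17 and for MYSERV16_I-int over MYSERV6-int. Points are libraries and bars mean ± SD (n = 3); the RMER17 ratio averages 0.530 ± 0.0343 in KO and 0.746 ± 0.118 in WT, and the other ratios are higher in every KO library than in any WT library.

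Among the RMER19 rows, RMER19B stood apart. It was at 282, 268 and 251 normalized CPM in KO, against 312, 316 and 318 in WT, with no overlap and with WT libraries close together. The log2 fold change of -0.24 (standard error 0.06, 95% interval -0.38 to -0.10) missed the threshold (edgeR adjusted p = 0.0643). It passed with DESeq2, with limma-voom and without KO replicate 1. RMER19A and RMER19C were at -0.02 and -0.07, while RMER19B2 was at 61.9, 55.5 and 57.1 in KO, against 53.0, 56.1 and 51.7 in WT (log2 fold change 0.12, edgeR adjusted p = 0.292).

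RMER3 counts came almost only from the internal region. RMER3D-int was at 48.3, 41.1 and 44.4 normalized CPM in KO, against 36.7, 39.3 and 36.7 in WT, with every KO library above every WT library. The log2 fold change was 0.24 with a 95% interval of 0.09 to 0.40 and did not pass (edgeR adjusted p = 0.0763). RMER3D1 and RMER3D4 had too few counts to be tested, with 4, 7 and 10 counts in KO against 8, 2 and 6 in WT for RMER3D1, and 4, 4 and 3 in KO against 2, 1 and 4 in WT for RMER3D4. RMER3D2, with 13, 6 and 5 counts in KO against 15, 0 and 4 in WT, and RMER3D3, with 2, 12 and 12 in KO against 16, 4 and 12 in WT, were tested with too few counts to show a difference of the size fitted. The 0 counts of RMER3D2 in WT replicate 2 allow a level of up to 0.390 normalized CPM, by counting error only. Their log2 fold changes were 0.55 and -0.21 with intervals of -1.34 to 2.44 and -1.11 to 0.69.

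None of the rows of RMER4, RMER12, RMER13, RMER20 and BGLII passed. The RMER20 rows all had log2 fold changes above 0, with a median of 0.16, and all lay below 0 when scaled by total counts, RMER20A at -0.27. RMER20A was at 52.4, 48.6 and 51.1 normalized CPM in KO, against 47.1, 43.7 and 44.6 in WT, without overlap (log2 fold change 0.16, edgeR adjusted p = 0.124), and RMER20B and RMER20C_Mm were at log2 fold changes of 0.11 and 0.16. RMER4B was at 209, 204 and 187 in KO, against 205, 206 and 197 in WT, and its 95% interval on the log2 scale ran from -0.16 to 0.12. RMER13A was at 199, 195 and 207 in KO, against 191, 208 and 212 in WT, with an interval of -0.16 to 0.12. Neither interval reaches a change of 1.5-fold. RMER12 was at 58.9, 55.5 and 68.5 in KO, against 58.8, 57.2 and 59.2 in WT, and RMER12B and RMER12C were at log2 fold changes of 0.11 and 0.07. BGLII was at 35.9, 37.5 and 46.3 in KO, against 44.7, 37.3 and 36.9 in WT, a log2 fold change of 0.00 with an interval of -0.25 to 0.26. The other 6 BGLII rows ran from -0.41 in BGLII_C, which had 22 to 56 counts in KO and 23 to 78 in WT, to 0.12 in BGLII_B, and none passed.

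The other 226 ERVK rows, of which 221 were tested, had 13 rows higher and 6 lower in KO and a median log2 fold change of 0.00. This was 8.60% called, 5.88% as higher and 2.71% as lower, against 5.78%, 2.18% and 3.60% of all tested rows. Their groups did not overlap in 63 rows, 28.5%, against 20.4% of the RMER, BGLII and MYSERV rows, and whether these shares differ was not tested. The RMER name is also carried by 12 rows of other families. All 12 were tested and none passed, against 5.78% of all tested rows, and 1 had an unadjusted p below 0.05 (8.33%, against 20.9%). Their groups did not overlap in 5 rows, 41.7%, against 25.8% of all tested rows. Their log2 fold changes ran from -0.15 in RMER1C to 0.19 in RMER2. RMER15-int, an ERVL internal region, was at 183, 179 and 181 normalized CPM in KO, against 186, 194 and 189 in WT, a log2 fold change of -0.06 with an interval of -0.18 to 0.05.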

How the data were processed

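Libraries came from a TruSeq Ribo-Zero kit, per the labels' protocols. The submitters' processing notes name FastQC 0.11.5, Trimmomatic, Bowtie2 and the builds mm10 and GRCm38. No source used here names the program that counted repeats, its repeat annotation or its use of strand. The authors deposited estimated counts (fractional, going by the file names) for each repeat row without normalizing them, and every value was a whole number.

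The counts were analysed with edgeR 4.0.16 in R 4.3.3. filterByExpr kept 1193 rows and dropped 143. After TMM scaling, KO was tested against WT with a quasi-likelihood fit of all kept rows, and p was adjusted by Benjamini-Hochberg (threshold 0.05). Standard errors and 95% intervals were derived from the test statistic. The steps were tested on simulated counts that were drawn independently for each row. Variation shared between rows was not simulated, so that test does not show how the calls fare under it. Internal regions were recognised by name. Ratios, sums and subgroup medians are descriptions.

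The members and lists were chosen with earlier results of these data known. By rule, the text named called rows, internal regions, the row of highest level in each subgroup, the 5 highest and 5 lowest fold changes among members averaging at least 50 counts, and untested rows. Other rows were named after their values were seen. Alternatives were DESeq2 1.42.0, limma-voom 3.58.1, and other scalings, filters, row sets, covariates and libraries.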

Additional observations from a re-analysis of the deposited data

How the results depend on the processing

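Of 1193 rows tested 69 were called in all, and 2 among the members. Over the fits without a single library these counts ran from 22 to 69 and from 0 to 3. Without WT replicate 1 and KO replicate 2 they were 9 and 0, and without WT replicate 2 and KO replicate 1, a choice made after seeing the data, 36 and 0. Scaled by total counts both were 0, and that scaling left 1 of 54 members above 0, against 30 as reported. It turned the log2 fold changes of BGLII (-0.47), MYSERV16_I-int (-0.11), RMER12 (-0.36) and RMER17A (-0.11) below 0. RMER17A-int (-0.11), RMER17D2 (-0.17), RMER20A (-0.27) and RMER3D-int (-0.16) turned below 0 as well. So did RMER17C (-0.21), RMER17B and further rows named after their values were seen, with the median of all rows at -0.36. Without structural RNA rows 41 rows were called, 3.65% of the 1124 tested, and among LTR class rows alone 34, 5.42% of the 627 tested; both member calls remained. DESeq2 called 4 members: the 2 reported rows, RMER16C (adjusted p = 0.0263) and RMER19B (adjusted p = 0.0206). limma-voom called MYSERV16_I-int and RMER19B (adjusted p = 0.0335), with RMER6B at an adjusted p of 0.0543. With the replicate number as a block 24 rows and 0 members were called, with MYSERV16_I-int at 0.25 and RMER6B at -0.35. Deviations from the group means correlated at -0.55, -0.50 and 0.04 between the KO and WT replicates 1, 2 and 3. Nothing in the labels ties equal numbers to a shared source, so the numbers were not used as pairs. The highest correlation was 0.62, between KO replicate 2 and WT replicate 1, the libraries with the least ribosomal RNA. KO replicate 1 and WT replicate 2, those with the most, correlated at 0.46. The part of ribosomal RNA in these correlations was not tested. The sign of rows close to 0 changed elsewhere: BGLII was at -0.0013 with no count filter, -0.00024 without structural RNA rows, -0.0073 among LTR class rows and -0.0096 with limma-voom. Over the fits without 1 or 2 libraries BGLII ran from -0.12 to 0.17, RMER12 from -0.039 to 0.14, RMER4B from -0.056 to 0.025, RMER13A from -0.067 to 0.018 and RMER16-int from -0.068 to 0.036. The cause of these changes was not tested. Depth limits RMER3D1 to RMER3D4, with at most 16 counts in a library.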
